A study of Caenorhabditis elegans with 7 samples.

Results

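The ephrin, semaphorin and plexin genes of *C. elegans* were followed in embryonic A-class motor neurons. The set holds 10 genes: the Eph receptor gene vab-1 (M03A1.1), the ephrin genes vab-2 (Y37E11AR.6), efn-2 (C43F9.8), efn-3 (F15A2.5) and efn-4 (F56A11.3), the semaphorin genes mab-20 (Y71G12B.20), smp-1 (Y54E5B.1) and smp-2 (D1037.2), and the plexin genes plx-1 (Y55F3AL.1) and plx-2 (K04B12.1). They were chosen by name, as gene families, and every probe set that the array's annotation pairs with one of these symbols was taken. This gave 13 of 22548 probe sets and 10 of 17118 genes, with 2 probe sets each for vab-1, efn-4 and smp-1. All 10 symbols were matched by gene ID to RefSeq, and no probe set annotated to several genes named any of them. No nucleotide or protein sequence was used here.

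Cells were taken from embryos, dissociated and kept in culture for 24 hours so that they could differentiate. The A-class group (3 arrays) comes from animals carrying the unc-4::GFP transgene, in which the promoter of the homeodomain gene unc-4 labels DA and SAB motor neurons and the pharyngeal neuron I5, and its cells were gated on GFP to a purity of about 90%. The reference group (4 arrays) comes from wild-type N2 cultures treated likewise, sorted only for exclusion of propidium iodide, so that it contains every living cell type. No age, sex or further genotype is given in the labels, and nothing beyond the words "biological rep" tells whether replicates came from separate cultures, so p-values measure the spread between these arrays.

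Ephrins are membrane-anchored ligands that signal through Eph receptor tyrosine kinases when cells touch, and VAB-1 is the Eph receptor of *C. elegans*. Semaphorins are secreted or membrane-bound cues that act through plexins. In the worm embryo, Eph signaling organizes neuroblasts and the epidermis that closes over them, and both systems guide axons. In DA motor neurons, SMP-1 and PLX-1 are known to keep the presynaptic domains of neighboring cells apart. The comparison asks which of these cues and receptors have more or less transcript in A-class cells than in the average embryonic cell.

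The sort was checked first on its own marker. The unc-4 transcript had a mean intensity of 1277 ± 116 (SD, n = 3) in A-class cells and 97.1 ± 9.47 (SD, n = 4) in reference cells, a log2 fold change of 3.72 (SE 0.13, limma adjusted p = 2.13e-05). Of the cholinergic markers, unc-3 and unc-17 were also higher by the test, while cha-1 and cho-1 lay above every reference array without passing it (limma adjusted p = 0.0461 and 0.034). Array medians were between 66.9 and 70.1, and squared correlations of log2 intensities were 0.938 to 0.969 among reference arrays, 0.893 to 0.947 among A-class arrays and 0.772 to 0.876 between groups. No chip lot and none of the 5 hybridization days held both groups, so lot and day cannot be told apart from cell type. The strain and the gating on GFP also differed between the groups throughout, so they cannot be told apart from cell type either. The fluidics module, the washing unit of an array, did hold both groups in module 1 (2 and 2 arrays) and module 2 (1 and 1).

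Of the 10 genes, 1 was called lower in A-class cells (vab-2), none was called higher and 9 did not pass. To be called, a gene had to reach an adjusted p below 0.01 together with 1.7-fold, and a gene with several probe sets was represented by the most specific one, then by the brightest. Over all genes, 3.31% were called lower and 2.21% higher by the same rule. At an unadjusted p under 0.05, 6 of the 10 genes were lower and 0 were higher in limma, against 15.9% and 18.1% of all genes, and the SAM statistic of the study's methods, with a limit of 1.5-fold, called 2 lower and 0 higher, against 5.69% and 4.42% of all genes. Every A-class array lay below every reference array for 5 of the 10 genes (vab-2, efn-2, efn-3, efn-4 and smp-1), and for none did every A-class array lie above. Among all genes these patterns were found for 13.6% and 17.1%. The median log2 fold change was -0.43 over the 10 genes and 0.05 over all genes. By family, the median was -0.74 for the 4 ephrins, -0.39 for the 3 semaphorins and 0.16 for the 2 plexins.

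**Figure D1:**
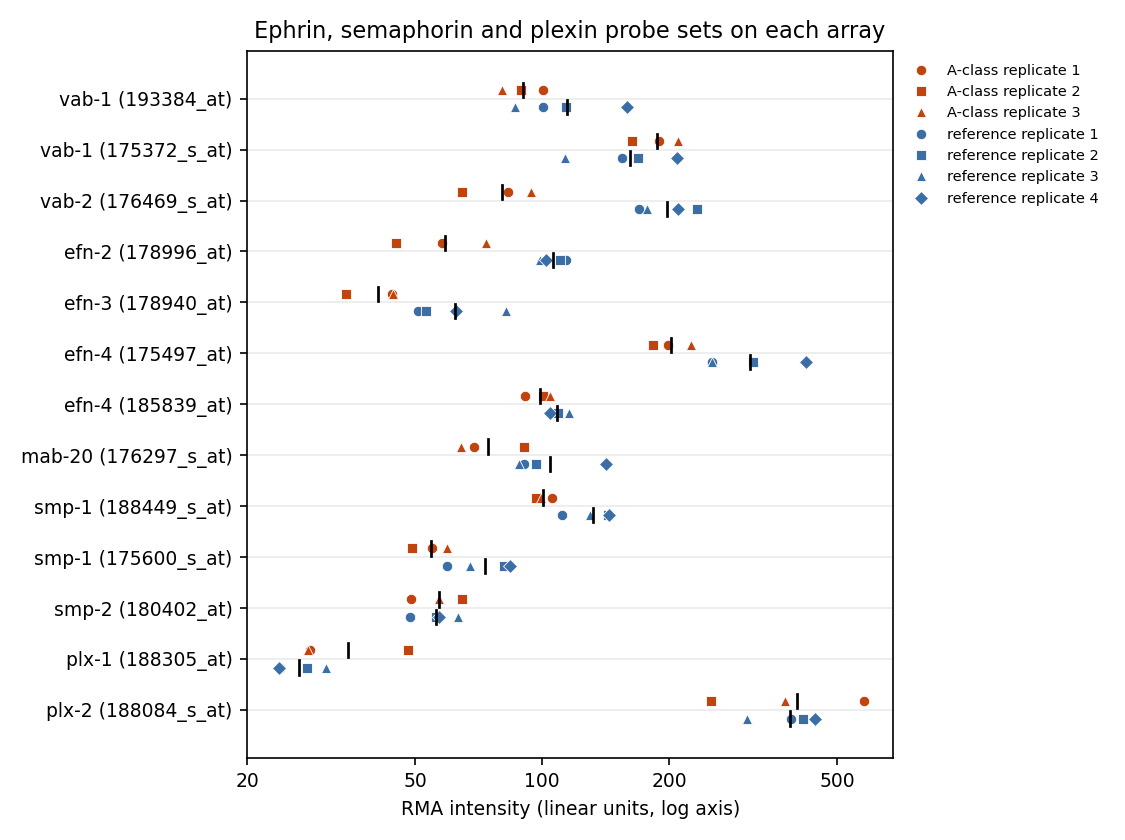
RMA intensity (log axis) of each probe set on each array, with A-class arrays in red, reference arrays in blue, 1 marker shape per replicate and black bars at group means. For vab-2 the A-class arrays lie between 64.5 and 94.0 and the reference arrays between 169 and 232, whereas the plx-2 arrays of both groups are mixed.

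Of the 4 ephrin genes vab-2 was called lower in A-class cells, with the largest log2 fold change of the 10 genes, and efn-2, efn-3 and efn-4 did not pass. The vab-2 gene, also named efn-1, encodes an ephrin that binds VAB-1. Its intensities were 83.1, 64.5 and 94.0 on A-class replicates 1 to 3 and 169, 232, 177 and 210 on reference replicates 1 to 4. The highest A-class array was thus well below the lowest reference array. The group means were 80.5 ± 14.9 (SD, n = 3) and 197 ± 29.3 (SD, n = 4), so that the transcript was 2.46-fold lower in A-class cells. The log2 fold change was -1.30 (SE 0.17, 95% interval -1.69 to -0.90, limma adjusted p = 0.00256). Within the fluidics modules it was -1.28 in module 1 and -1.48 in module 2. With the module as a block, in which reference replicate 3 is alone in its module and adds nothing, it was -1.35 and outside the limit (limma adjusted p = 0.0178). The call also ended without reference replicate 2 (-1.22, limma adjusted p = 0.0109) or A-class replicate 1 (-1.33, limma adjusted p = 0.011). Because the reference is a mixture, fewer cells that express a gene and less RNA per cell cannot be told apart in these values. The 1 probe set for vab-2 has the suffix _s_at, which marks probes shared between transcripts.

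The efn-2 gene encodes another ephrin that binds VAB-1, and its transcript came just short of a call. Its intensities were 57.9, 45.0 and 73.6 on the A-class arrays and 114, 110, 99.0 and 102 on the reference arrays. Again the groups were apart, and the reference arrays lay close together (SD 6.91 around 106). The log2 fold change was -0.88 (SE 0.17, 95% interval -1.27 to -0.49), with a limma adjusted p of 0.0111 against a limit of 0.01. It stayed near this value within the modules, at -0.91 and -0.93. Leaving out A-class replicate 3, the highest of the A-class arrays, gave a call (-1.06, limma adjusted p = 0.00904). So did the SAM statistic, a limit of 0.05 on the adjusted p, and removal of the dimmest 30% of probe sets.

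For efn-3, the remaining ephrin that binds VAB-1, A-class arrays had 44.0, 34.3 and 44.2 and reference arrays had 50.9, 53.0, 82.0 and 62.6. The groups did not overlap, but the gap was narrow and 6 of the 7 values were below the median probe set of their array. Its log2 fold change of -0.59 (SE 0.19, 95% interval -1.02 to -0.15) did not pass (limma adjusted p = 0.0678). The fourth ephrin gene, efn-4, encodes a divergent ephrin that acts largely apart from VAB-1. On its representative probe set, the brighter one, it had 199, 183 and 225 in A-class cells and 253, 315, 253 and 421 in the reference, and reference replicate 4 was the highest. Here the log2 fold change was -0.59 (SE 0.20, 95% interval -1.04 to -0.14, limma adjusted p = 0.072). The other efn-4 probe set differed less, with 91.0 to 104 in A-class cells, 104 to 116 in the reference and a log2 fold change of -0.14 (SE 0.11, limma adjusted p = 0.399). Under all 20 alternative settings, the log2 fold changes of vab-2, efn-2, efn-3 and efn-4 remained negative on their representative probe sets. Several of these settings change only the test or its limit and keep the estimate as it was. Because every A-class array lay below every reference array on these probe sets, leaving out an array could not turn the sign.

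Markers of other cells are given beside the ephrin result. Of 7 hypodermis markers, 6 had a lower mean in A-class cells and 5 lay below every reference array, but none was called. The exception was elt-1, at 321 ± 97.9 (SD, n = 3) against 150 ± 12.3 (SD, n = 4), and 2 genes of the list were called lower on a probe set other than the representative one. The summed intensity of the list was 869 to 1341 on A-class arrays and 1469 to 2059 on reference arrays. For the 5 touch neuron markers, of which 4 lay below every reference array and mec-7 was called lower, the sums were 492 to 540 and 1060 to 2422. The largest part of these sums was mec-7, with means of 245 and 858. Its other probe set was not called, with a log2 fold change of -0.19 (limma adjusted p = 0.441). Of the 5 body wall muscle markers 4 lay below every reference array and 1 (unc-22) above, none was called, and the sums overlapped, at 559 to 811 and 663 to 966. The sums of the 4 pharyngeal muscle markers were 440 to 718 and 637 to 964, where 2 of 4 genes lay below every reference array. The 5 intestine markers summed to 306 to 354 and 409 to 855, but this gap came mainly from ifb-2 (86.0 against 277 on average), the 1 gene of the list below every reference array, and the median over the list was -0.08 on the log2 scale. For the 3 GABA neuron markers, each with overlapping groups, the sums of 198 to 272 and 258 to 409 overlapped too. The sums of the 4 germline markers went the other way, at 331 to 788 in A-class cells and 281 to 324 in the reference. This gap came mainly from glh-1, at 378 ± 227 (SD, n = 3) against 145 ± 16.6 (SD, n = 4). It was the 1 gene of the list above every reference array, with a log2 fold change of 1.20 (limma adjusted p = 0.0586). The groups overlapped for pgl-1, nos-2 and him-3, which had log2 fold changes of 0.15, 0.24 and -0.17. None of the muscle, intestine, GABA neuron or germline markers was called. As RMA gives every probe set a positive value, no marker is at 0. The part of these cells in the vab-2 difference was not tested.

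**Figure D2:**
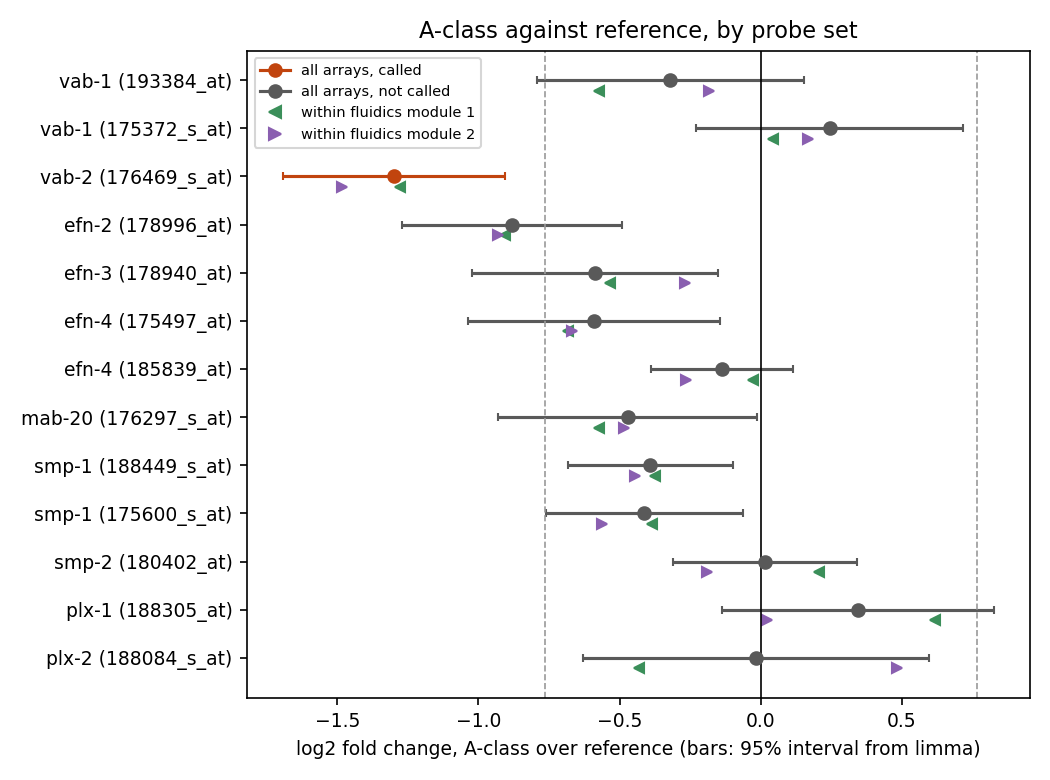
Log2 fold change of A-class over reference for each probe set, with 95% intervals from limma, the call in red, dashed lines at 1.7-fold, and triangles for the values within fluidics modules 1 and 2. The vab-2 interval runs from -1.69 to -0.90, and the plx-2 triangles lie on opposite sides of 0 (-0.43 and 0.48).

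The Eph receptor gene vab-1 did not pass on either of its probe sets, and no test set it against its ligands. On the representative vab-1 probe set, intensities were 100.2, 89.3 and 80.3 in A-class cells and 100.2, 114, 86.4 and 159 in the reference, and the groups overlapped. The log2 fold change was -0.32 (SE 0.21, 95% interval -0.79 to 0.15, limma adjusted p = 0.302). On the brighter probe set, of the _s_at kind, the values were 190, 163 and 210 in A-class cells and 155, 169, 113 and 209 in the reference. These overlapped too, and the log2 fold change had the opposite sign, at 0.24 (SE 0.21, 95% interval -0.23 to 0.72, limma adjusted p = 0.427). The 95% interval of the representative probe set overlapped those of efn-2 (-1.27 to -0.49) and efn-3 (-1.02 to -0.15). It did not overlap that of vab-2 (-1.69 to -0.90).

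Since the vab-1 probe sets disagreed in sign, their ratio was taken within each array, which leaves out any change common to both. The signal of the brighter probe set was 1.89, 1.83 and 2.62 times that of the representative one on A-class replicates 1 to 3, and 1.54, 1.49, 1.31 and 1.31 times on reference replicates 1 to 4. All 3 A-class ratios were above all 4 reference ratios. The difference of mean log2 ratios was 0.56 (exact permutation test, two-sided, p = 0.0571, the smallest p that 3 against 4 arrays allow, and 0.0857 after adjustment over the 3 genes with 2 probe sets). For efn-4 the ratio was 1.82 to 2.18 in A-class cells and 2.19 to 4.03 in the reference, a difference of -0.45 with the same exact permutation p. The smp-1 probe sets moved together, and their ratios of 1.66 to 1.97 and 1.72 to 1.92 overlapped (difference 0.02, exact permutation p = 0.857). As the vab-1 ratio was taken after its signs were seen, and no p under 0.05 can be reached here, these ratios are a description. The annotation gives only the gene, not the transcripts that each probe set detects.

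**Figure D3:**
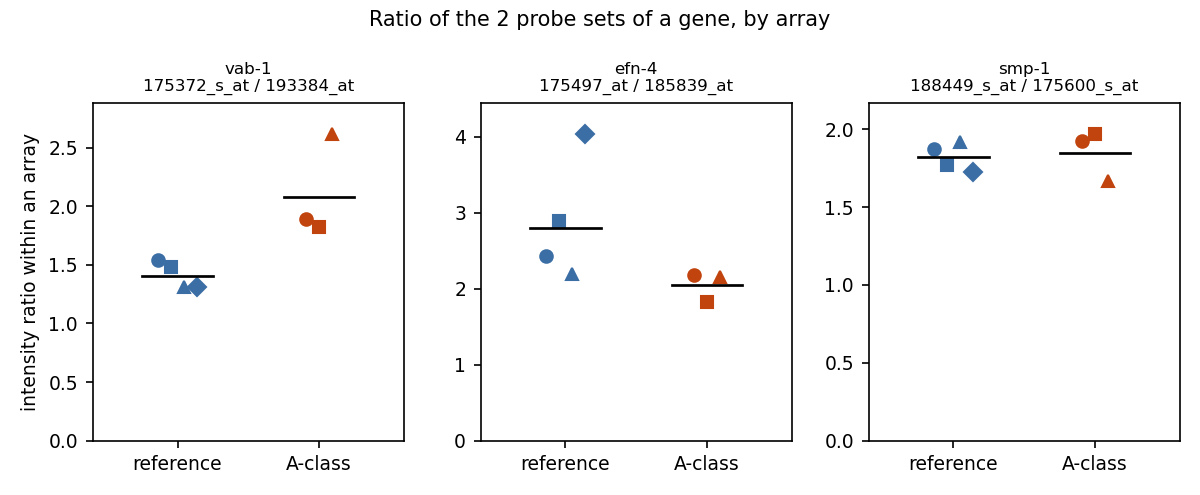
Ratio of the intensities of the 2 probe sets of vab-1, efn-4 and smp-1 within each array, with 1 marker shape per replicate, bars at geometric means and the axis starting at 0. All A-class ratios of vab-1 (1.83 to 2.62) lie above the reference ratios (1.31 to 1.54), and the smp-1 ratios overlap.

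The semaphorin genes showed small differences or none. The smp-1 gene encodes a membrane-bound semaphorin that signals through PLX-1. On its brighter probe set it had 105, 96.7 and 99.2 in A-class cells and 112, 144, 130 and 144 in the reference, without overlap. The log2 fold change of -0.39 (SE 0.13, 95% interval -0.68 to -0.10) did not pass (limma adjusted p = 0.0704), and the other probe set gave -0.41 (SE 0.15, limma adjusted p = 0.0977), where A-class replicate 3 and reference replicate 1 had the same value of 59.6.

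The mab-20 gene encodes a secreted semaphorin that acts through PLX-2. Its intensities were 69.1, 90.3 and 64.1 in A-class cells and 90.3, 96.7, 88.1 and 142 in the reference. The groups overlapped, and reference replicate 4 stood apart from the other reference arrays. The log2 fold change was -0.47 (SE 0.20, limma adjusted p = 0.137), or -0.32 (limma adjusted p = 0.247) without that array. For smp-2, which encodes the other membrane-bound semaphorin, the values were 49.0, 64.7 and 57.0 in A-class cells and 48.5, 55.9, 63.1 and 57.0 in the reference. The groups coincided, with a log2 fold change of 0.02 and a 95% interval of -0.31 to 0.34, so that a difference as large as 1.7-fold lies outside it. All 7 values were below the median probe set of their arrays, and no detection call was used, so a dim probe set could hide a change.

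Neither plexin gene passed. Their A-class arrays had coefficients of variation of 33.2% for plx-1 and 41.1% for plx-2, and their reference arrays of 12.6% and 15.3%. The plx-1 probe set had 28.2, 48.0 and 27.8 in A-class cells and 23.9, 27.8, 30.7 and 23.8 in the reference. On all 7 arrays the value was below the median probe set. Apart from A-class replicate 2, the groups overlapped, and the log2 fold change was 0.34 (SE 0.21, 95% interval -0.14 to 0.83, limma adjusted p = 0.277), or 0.09 without that array. For plx-2, intensities of 579, 252 and 375 in A-class cells enclosed the reference values of 388, 415, 305 and 443. The SD in A-class cells was 165 around a mean of 402, against 59.3 around 388 in the reference. Accordingly the log2 fold change of -0.02 had a wide 95% interval, -0.63 to 0.60 (limma adjusted p = 0.973). It was -0.43 within module 1, which holds A-class replicates 2 and 3, and 0.48 within module 2, which holds A-class replicate 1, and it became 0.28 without A-class replicate 2. Whether the module or the cells caused this spread was not tested.

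Ordered by log2 fold change of the representative probe sets, the genes ran from vab-2 (-1.30) through efn-2, efn-4, efn-3, mab-20, smp-1, vab-1, plx-2 and smp-2 to plx-1 (0.34). Intervals of neighbors in this order overlapped throughout, and only vab-2, efn-2, efn-3, efn-4, mab-20 and smp-1 had 95% intervals that left out 0 before adjustment.

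Partners and effectors of both systems were taken from lists of genes with known roles in *C. elegans*. Of 32 listed genes 30 were measured (rac-2 and rho-1 were not paired with a probe set of their own), and of these 1 was lower, none was higher and 29 did not pass. At an unadjusted p under 0.05 in limma, 6 were higher and 6 were lower. With 3.31% of all genes called lower, and 18.1% higher and 15.9% lower at the unadjusted limit, these counts are near the background. Over the 30 genes the median was 0.11 on the log2 scale. The lower gene was kal-1, which encodes the anosmin homolog that acts with EFN-4 in epidermal morphogenesis. Its intensities were 70.8, 40.4 and 57.0 in A-class cells and 119, 262, 161 and 255 in the reference, with no overlap. This gave a log2 fold change of -1.79 (SE 0.31, limma adjusted p = 0.00727), but of the 7 fits with 1 array left out, only the fit without reference replicate 1 kept the call (limma adjusted p of the others up to 0.0284). It was also lost with the module as a block (limma adjusted p = 0.0241).

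Among the partners of ephrins, ptp-3, which encodes a LAR-type receptor phosphatase that acts with VAB-1 and EFN-4 in morphogenesis, had 2034 ± 597 (SD, n = 3) in A-class cells and 1021 ± 165 (SD, n = 4) in the reference. All A-class arrays were above the reference, and the log2 fold change of 0.96 (SE 0.23) did not pass (limma adjusted p = 0.0245). Without A-class replicate 2 it was 1.23 and called higher (limma adjusted p = 0.00642). For sax-3, the Robo receptor gene whose product binds VAB-1, it was 0.41 (limma adjusted p = 0.444), and -0.19 on the other probe set. On the plexin side, the L1-type adhesion gene lad-2, a co-receptor gene for MAB-20 signaling, had 0.33 (limma adjusted p = 0.167). Its other probe sets gave -0.29 to 0.43. The genes mig-15 and rap-2, which act with PLX-1 in spacing DA synapses, had 0.31 and -0.39 (limma adjusted p = 0.371 and 0.0884). Another mig-15 probe set gave -0.13. For the p21-activated kinase gene pak-1 the A-class arrays exceeded all reference arrays on the representative probe set (0.75, limma adjusted p = 0.0317), and its other probe sets gave -0.56 and -0.03. The lowest values among partners not called were -1.23 for gcn-1 and -0.67 for gex-3 (limma adjusted p = 0.0678 and 0.107). Another gcn-1 probe set gave 0.31. The daf-18 probe sets had opposite signs, at 0.61 and -0.59, and did not pass (limma adjusted p = 0.0754 and 0.0612). Of the 30 genes 11 had a negative log2 fold change, against 43.8% of all genes.

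In 3 further genes, unc-60, rap-1 and mig-2, a probe set other than the representative one was lower, so these genes are uncertain. One unc-60 probe set had 193, 260 and 272 in A-class cells and 1033, 1330, 1179 and 957 in the reference. This amounted to -2.22 on the log2 scale (SE 0.17, limma adjusted p = 0.000389). It was also lower with the module as a block (-2.20, limma adjusted p = 0.00791). For the remaining 4 of this gene there were log2 fold changes of -0.28 to 0.08 and did not pass. The gene encodes 2 forms of the actin-severing protein ADF/cofilin, of which UNC-60B is known from body wall muscle, and the annotation does not tell which form a probe set detects. For the small GTPase gene rap-1 the lower probe set had -1.04 and the representative one -0.60 (limma adjusted p = 0.00307 and 0.0518), and for the Rac-like gene mig-2 these were -0.79 and -0.17 (limma adjusted p = 0.00695 and 0.417). With the module as a block, the lower probe sets of rap-1 and mig-2 lost the call (-1.15 and -0.71, limma adjusted p = 0.0108 and 0.0353).

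**Figure D4:**
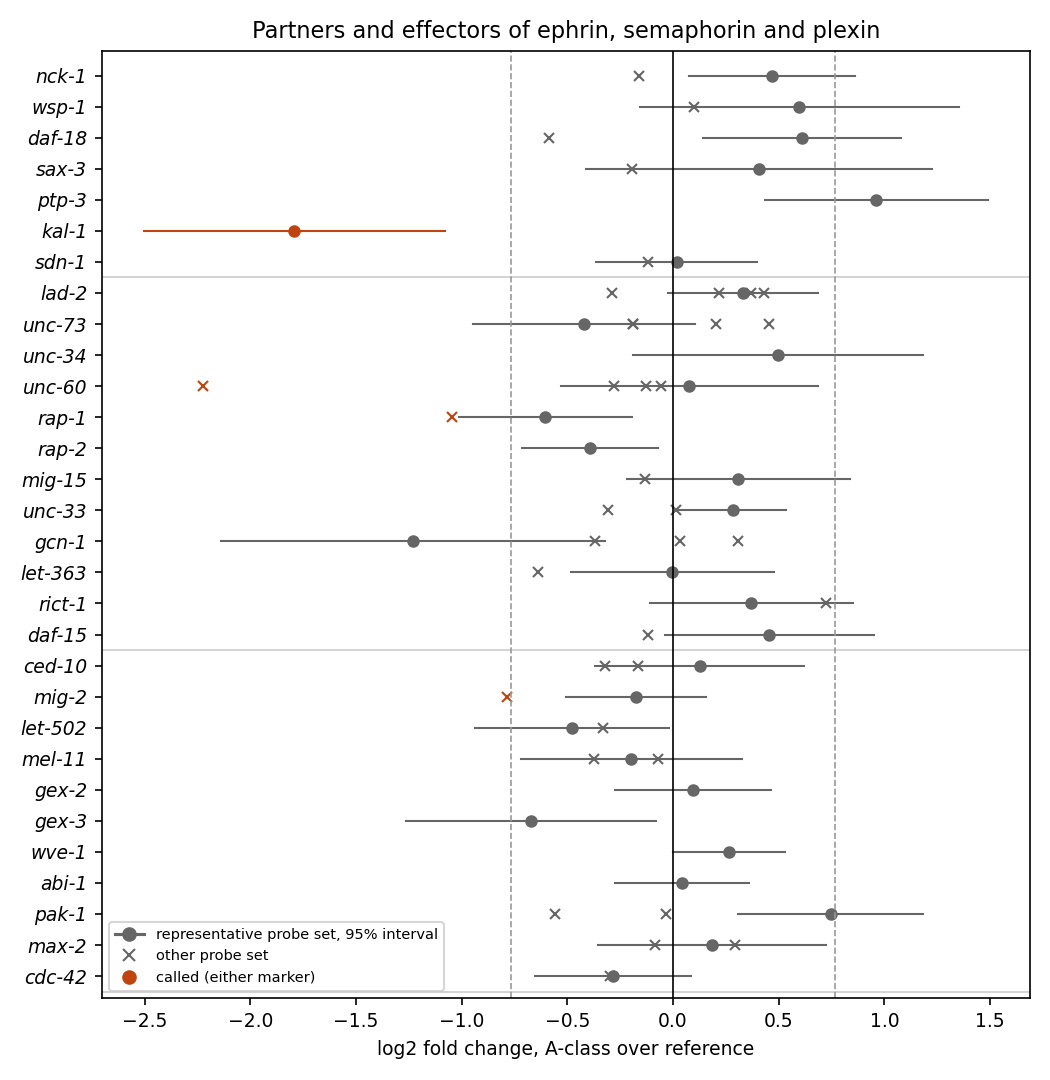
Log2 fold change of A-class over reference for partners and effectors, with circles and 95% intervals for representative probe sets, crosses for other probe sets, calls in red and dashed lines at 1.7-fold. The red circle is kal-1 (-1.79), and red crosses mark single probe sets of unc-60 (-2.22), rap-1 (-1.04) and mig-2 (-0.79).

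As a description of what varied with vab-2, the genes with the most similar log2 intensities over the 7 arrays were ZK816.1 (Pearson r = 0.998), inos-1 (r = 0.993) and inx-11 (r = 0.993). All were lower in A-class cells, with log2 fold changes of -0.83, -1.20 and -0.78 (limma adjusted p = 0.00417, 0.00176 and 0.00864). The inos-1 gene encodes inositol-phosphate synthase and inx-11 encodes an innexin. The points are the same 7 arrays in 2 groups, so such a correlation mainly follows the difference between groups.

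**Figure D5:**
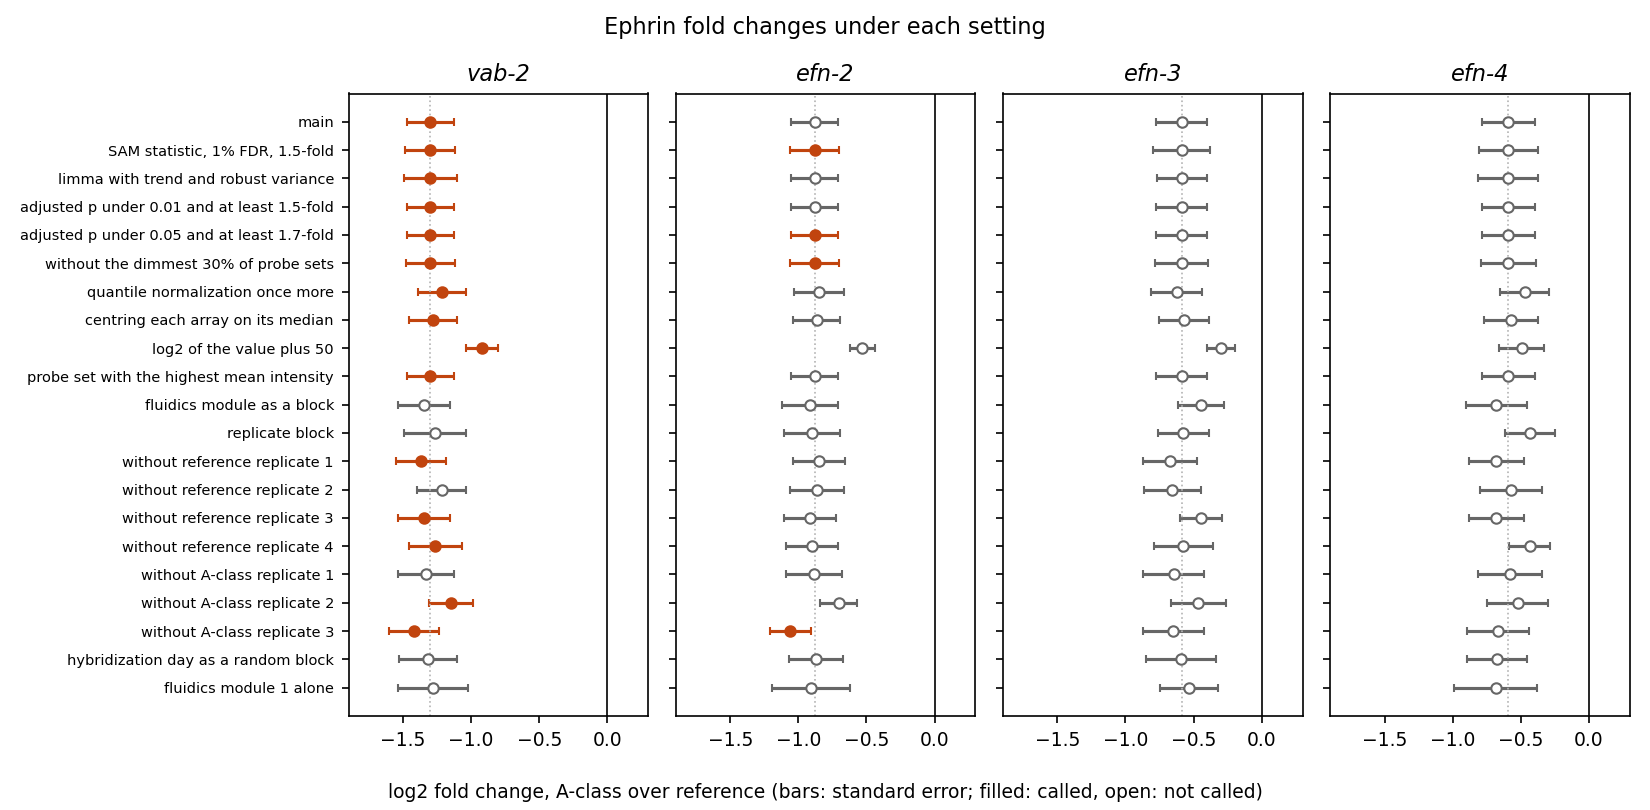
Log2 fold change of the 4 ephrin genes (bars: SE) in the reported comparison (top) and under 20 alternative settings, filled where called and open where not. The vab-2 estimates lie between -1.42 and -0.92 and are called in 14 of the alternatives, those of efn-2 in 4, and those of efn-3 and efn-4 in none.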

How the data were processed

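From each sample 100 ng of RNA went through double in vitro transcription and was labeled with biotin and hybridized to Affymetrix *C. elegans* arrays. The deposited intensities are RMA values, which the authors made by correcting background, normalizing between arrays and combining probes, and they are on a linear scale. Which arrays were normalized together, and the RMA version, is not stated. Fluidics module, chip lot and hybridization day came from the deposited hybridization records.

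Intensities were converted to log2 with no pseudocount, and all 22548 probe sets were fitted with limma 3.58.1 (R 4.3.3; lmFit, eBayes, two-sided) on 7 arrays, with no covariate and p-values adjusted by Benjamini-Hochberg over the whole table. Calls used an adjusted p under 0.01, the study's false discovery rate, and at least 1.7-fold. Names came from the platform annotation, in which 20766 probe sets have 1 symbol, 887 several and 895 none. Genes with several probe sets were represented by the _at kind where present, else _s_at, and among equals by the brightest. No coordinates were used. The number of arrays limits the precision, and 0 columns lacked a sample.

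All members, every listed partner that passed, other listed partners as examples chosen after their values were seen, and the 3 genes most like the called member were named. The members, lists, markers and tests were chosen with earlier results of these data known. Alternatives were SAM (35 labelings, median number of false calls), trend and robust variance, other limits, normalizations, filters and probe sets, blocks, and leaving out each array. Both limma and SAM were run on simulated data with independent noise for each probe set and array. Those data held no day, lot or module effect, so they cannot show how such effects change the calls. Figures used Python 3.11.15, pandas 2.3.3 and matplotlib 3.10.9.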

Additional observations from a re-analysis of the deposited data

Results flagged for a closer look

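For mab-20, reference replicate 4 had an intensity of 142, far from the other reference arrays at 88.1 to 96.7. Of 18 probe sets examined this was the only one with such a gap among the 4 reference arrays. Chance gives such a gap in about 1 in 20 probe sets, so 1 among 18 is near what chance gives. Without this array the mab-20 log2 fold change was -0.32 in place of -0.47, and it did not pass either way (limma adjusted p = 0.247 and 0.137). Groups of 3 arrays were not examined, so A-class replicate 2 of plx-1 and plx-2 could not be tested in this way.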

How the results depend on the processing

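The number of member genes called lower was 1. It was 2 (vab-2 and efn-2) with the SAM statistic, without the dimmest 30% of probe sets or at an adjusted p under 0.05. With the fluidics module in the fit it was 0, and likewise, in settings chosen after seeing the data, with the hybridization day as a random block or on module 1 alone. When each array was left out it ranged from 0 to 2. No member was called higher in any of the 20 settings. Of the partners, 1 was called (kal-1, lower), 2 at an adjusted p under 0.05 (kal-1 lower and ptp-3 higher), and 0 with log2 of the value plus 50, the module block, the day block or module 1 alone, with 0 to 1 when an array was left out (ptp-3, higher, without A-class replicate 2 and kal-1, lower, without reference replicate 1). With the replicate block, 0 members and 0 partners were called. Replicate numbers did not pair the arrays: deviations of same-numbered arrays correlated at 0.03, -0.12 and -0.05, and that fit leaves 2 residual degrees of freedom, with reference replicate 4 adding nothing. Over all 17118 genes, 378 were higher and 566 lower, against 73 and 81 with the module block, 69 and 78 with the replicate block, 757 and 974 with SAM, 685 and 1121 at an adjusted p under 0.05, 187 and 252 with log2 of the value plus 50, 141 and 182 with the day block, and 0 and 0 on module 1 alone. The fewest with an array left out were 135 and 173, without reference replicate 2.

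Signs turned for vab-1, whose 2 probe sets disagreed, and for smp-2 and plx-2, whose values were near 0. The vab-1 log2 fold change was 0.24 on its brightest probe set and -0.32 on the representative one. That of smp-2 was -0.05 without reference replicate 1 and -0.0813 without A-class replicate 2, with values of up to 0.12 (without A-class replicate 1) when other arrays were left out. For plx-2 it was 0.0731 after quantile normalization once more, 0.000871 after median centering, 0.0515 with the replicate block, 0.02 without reference replicate 2, 0.05 without reference replicate 4 and 0.28 without A-class replicate 2, against -0.32 without A-class replicate 1. The causes were not tested. Dim signals limit plx-1, smp-2 and efn-3, and plx-1 has no value without the dimmest 30%.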

Other observations

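Of the 13 member probe sets, 5 had exactly the same deposited intensity on 2 or more arrays, in each case shared between an A-class and a reference array (1 each of vab-1, efn-4, mab-20, smp-1 and smp-2). Over all 22548 probe sets, 37.0% had equal values on 2 or more arrays, and 4862 had them between groups. None of the probe sets of vab-2, efn-2, efn-3, plx-1 or plx-2 had such equal values. The step that made them was not tested.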
